A study of Mus musculus with 35 samples.

Results

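The keratinocytes described here were tdTomato-positive cells sorted from hind paw skin of vehicle-treated K5-cre-ER/tdTom mice, and their polyadenylated RNA was sequenced in bulk as 7 libraries, 4 from females and 3 from males. They were chosen as the libraries labelled K5+/TdT with vehicle treatment, and make up 7 of the 35 libraries of the series. They were compared with the 8 vehicle libraries of CD45-positive immune cells from wild-type mice and the 8 vehicle libraries of tdTomato-positive fibroblasts from Col1a2-cre-ER/tdTom mice, each with 4 libraries from females and 4 from males. All 23 libraries came from mice of the C57 strain aged 8 to 16 weeks that had received vehicle and no paclitaxel; the 12 libraries from paclitaxel-treated males were not used. In the K5-cre-ER/tdTom mice an inducible Cre under the keratin 5 promoter, which is active in basal cells of the epidermis and of its appendages, switches on the red reporter, and the daughters of a marked cell stay red as they move up. The Col1a2 promoter drives the same system in fibroblasts and related mesenchymal cells. How the Cre was induced, and with what vehicle, is not stated in the labels. No label ties the libraries to single mice. P-values below therefore measure the spread between these libraries, part of which may be technical. The comparison asks which genes are highest in resting keratinocytes against each of the other populations.

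As background, the epidermis is a layered epithelium renewed from below. Basal keratinocytes sit on the basement membrane, held there by hemidesmosomes and laminin, divide, and carry the keratin pair K5 and K14. Cells that leave the basal layer switch to K1 and K10, strengthen their desmosomes, and then build the cornified envelope and the lipid layers that hold water in. The transcription factor p63 is needed to keep the epithelial programme. Keratinocytes also signal to immune cells, fibroblasts and sensory nerve endings through cytokines, growth factors, nucleotides and ion channels.

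Counts in genes ranged from 6518070 to 11115207 per keratinocyte library, apart from keratinocyte female 2 with 988712, and from 14437683 to 20809036 in the other 16 libraries. Reads assigned to genes made up 19.3 to 24.3% of the total in the keratinocyte libraries, against 38.7 to 46.0% in the immune and 45.2 to 52.3% in the fibroblast libraries; reads that did not map uniquely made up 50.4 to 60.9%, 42.2 to 45.8% and 34.9 to 37.0%. Genes with a count numbered 8082 to 10858 in keratinocyte, 12163 to 13847 in immune and 11123 to 11994 in fibroblast libraries. The fewest were in keratinocyte male 2. The part of these differences in the results was not tested. Levels are given as CPM, the counts of a gene scaled to a fixed library total, after TMM scaling, which sets the libraries to a common scale by the bulk of their genes. Keratinocyte libraries resembled each other less (Spearman correlation of CPM 0.530 to 0.677 over 21 pairs, across genes) than immune libraries did (0.750 to 0.905 over 28 pairs).

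The cells carried the markers of their sort. The 12 basal keratinocyte markers summed to 17985 to 29416 CPM in the keratinocyte libraries, with none of the 12 at 0 in any of them, against 36.0 to 2846 CPM in the immune and 64.7 to 569 CPM in the fibroblast libraries. The 12 immune markers summed to 26.9 to 230.1 CPM in the keratinocyte libraries against 19629 to 39518 CPM in the immune libraries, and the 12 fibroblast markers to 441 to 1660 CPM against 78283 to 121006 CPM in the fibroblast libraries. Some libraries also held markers of another population. Immune male 4 had the highest Krt5 of the immune libraries, 609 CPM, and the immune libraries of males had 493 to 1292 CPM of the collagen gene Col1a2 against 7.85 to 46.5 in those of females. The 8 endothelial markers summed to 274.8 CPM in keratinocyte male 2, nearly all from Pecam1 at 274 CPM, with 5 of the 8 at 0 there, and to between 0.433 and 22.3 CPM in the other 6 keratinocyte libraries. With keratinocyte female 2 and immune male 4 both left out, an alternative added after seeing the data, 624 genes were higher in keratinocytes than in both other populations, against 716 with all libraries.

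**Figure D1:**
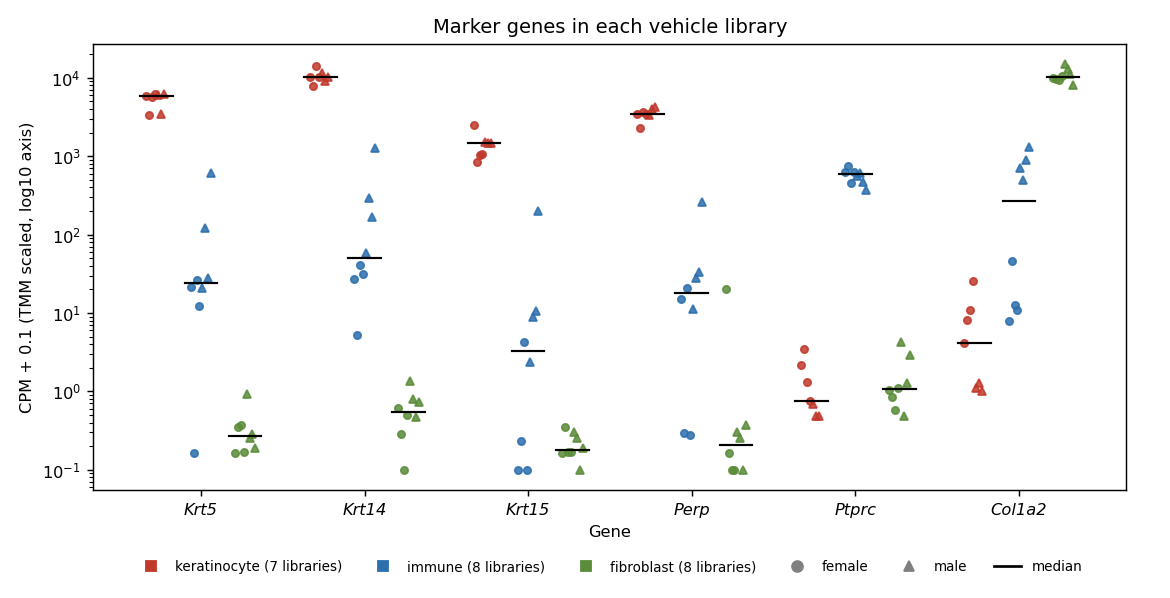
Level of 6 marker genes in each of the 23 vehicle libraries, as CPM after TMM scaling on a log10 axis with 0.1 added; each point is 1 library, circles are females and triangles are males, and the bar is the population's median. The 4 keratinocyte genes Krt5, Krt14, Krt15 and Perp are higher in all 7 keratinocyte libraries than in any other, Ptprc marks the immune libraries and Col1a2 the fibroblast libraries.

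Resting keratinocytes differed from both other populations in many genes, and the genes lower in keratinocytes outnumbered those that were higher. Of 14104 genes tested with edgeR, 1214 (8.61%) were higher and 3319 (23.5%) lower in keratinocytes than in immune cells at an adjusted p under 0.05. Against fibroblasts 1477 (10.5%) were higher and 2908 (20.6%) lower. Both comparisons use the same 7 keratinocyte libraries. Genes higher in both numbered 716 (5.08%), and genes lower in both 2028 (14.4%). These shares are the background for the counts of each gene list below. Genes lower in both numbered 1738 without keratinocyte male 2, the library with the fewest genes counted, and 2217 without keratinocyte male 1. The median log2 fold change over all tested genes was -0.48 against immune cells and -0.40 against fibroblasts. With library size alone as the scale, these medians moved to -0.17 and 0.18, and the calls against fibroblasts to 2115 higher and 2427 lower (46.6% of calls higher, against 33.7%), so that the balance of higher and lower calls depends on the scale.

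The 716 genes held 23.1 to 26.4% of the counts in the keratinocyte libraries, 2.82 to 4.55% in the immune and 2.07 to 2.47% in the fibroblast libraries. Every keratinocyte library lay above all 16 others for 300 tested genes (2.13%), and 270 of these were among the 716. Of the 716 genes, 54 had no count in any of the 16 other libraries. These 54 passed the filter on low counts through the keratinocytes alone and could only be called higher. At the same time 212 of the 716 had at least 1 keratinocyte library at 0, from 25 genes in keratinocyte male 1 to 119 in keratinocyte male 2, with 78 in the shallow keratinocyte female 2. Many of the genes that set keratinocytes apart were therefore counted in some keratinocyte libraries and not in others. Of the genes named in this text, 107 were called against immune cells and 104 against fibroblasts, in either direction. Leaving out 1 library moved the fold change of 72 and 60 of them by over 1.5 times in at least 1 of the fits, and ended the call of 7 and 4. The females alone gave 356 genes higher in both comparisons and the males alone 113, and 35 of 87 named calls against immune cells that could be tested in the males alone were lost there, against 13 of 82 against fibroblasts. In bulk libraries, fewer cells expressing a gene and less RNA per cell cannot be told apart.

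**Figure D2:**
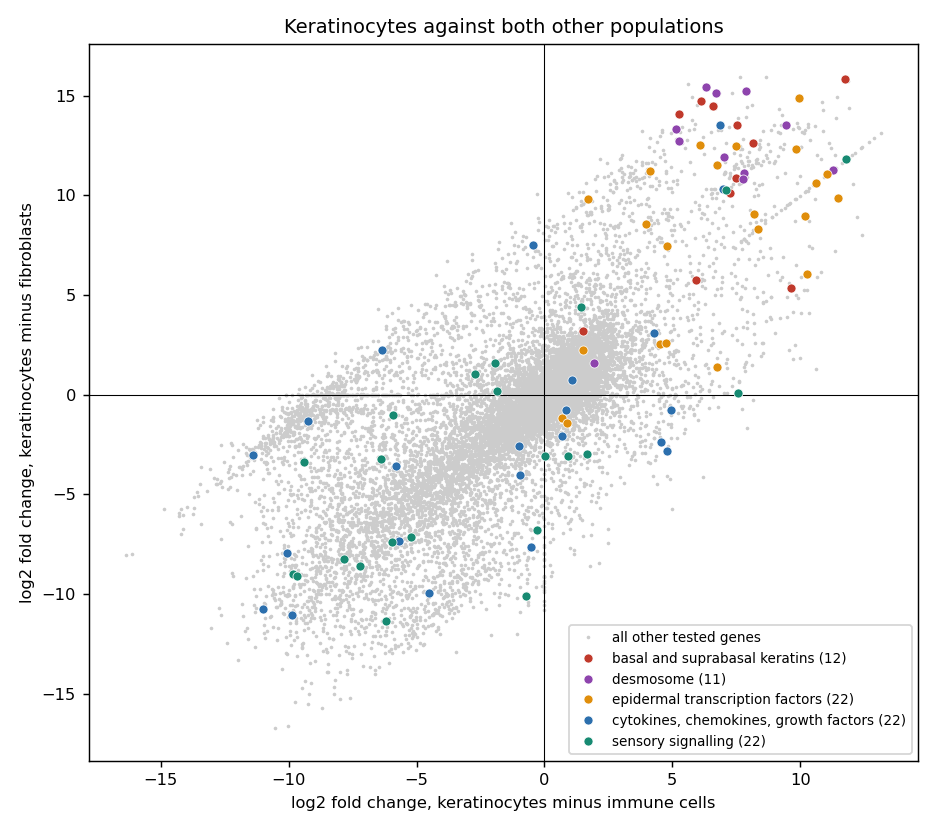
Fitted log2 fold change of each of the 14104 tested genes in keratinocytes against immune cells (x axis) and against fibroblasts (y axis), keratinocytes minus the other population; coloured points are the tested members of 5 gene lists and grey points all other genes. Desmosome, keratin and most epidermal transcription factor genes lie at the upper right, while cytokine and sensory signalling genes reach the lower left; values of genes with no count in a population depend on the prior count of the fit and are no bounds.

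The 4 marker genes were abundant in every keratinocyte library. Krt5 and Krt14, the keratin pair of the basal layer, ranked among the 10 most abundant of the 716 genes, with Perp, a membrane protein of desmosomes and a p63 and p53 target. Krt5 was at 3308 to 6264 CPM (median 5909.6) in keratinocytes, 0.0655 to 609 (median 23.9) in immune cells and 0.0631 to 0.827 (median 0.169) in fibroblasts, a log2 fold change of 6.61 ± 0.83 (SE; adjusted p = 1.01e-06) and 14.48 ± 1.12 (adjusted p = 3.36e-10). Krt14 was at 7878 to 14086 CPM (median 10137), 5.11 to 1281 (median 49.5) and 0 to 1.24 (median 0.452) in the same order, with 6.58 ± 0.62 (adjusted p = 9.37e-09) and 14.49 ± 0.83 (adjusted p = 1.51e-12). For neither gene did a keratinocyte library overlap with another population, although immune male 4 reached 609 and 1281 CPM. Krt15, a keratin of basal and stem-like cells, was at 842 to 2466 CPM (median 1466), 0 to 202 (median 3.21) and 0 to 0.252 (median 0.0784). Its log2 fold changes were 7.52 ± 1.08 (adjusted p = 7.81e-06) and 13.55 ± 1.37 (adjusted p = 3.41e-08). Perp was at 2275 to 4200.3 CPM (median 3488), 0.180 to 261 (median 17.7) and 0 to 20.1 (median 0.109) (log2 fold changes 7.01 ± 1.27, adjusted p = 0.000154, and 11.94 ± 1.56, adjusted p = 2e-06), again without overlap. Calls lost in an alternative were those of Krt14 against fibroblasts (voom). This list and the similar lists below leave out the replicate block, a block per sex and replicate number. The calls lost with it are given near the end.

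Keratins of the basal and the suprabasal layers were among the genes higher in both comparisons. Of 7 basal and activation keratins 6 were tested and all 6 were higher in both comparisons, with a median log2 fold change of 7.38 against immune cells and 14.02 against fibroblasts. Krt17, a keratin of appendages and activated epidermis, was at 554 to 1390.3 CPM (median 729), 0 to 23.5 (median 0) and 0 to 0.0629 (median 0); against immune cells its log2 fold change was 11.76 ± 1.17 (adjusted p = 2.52e-07) and against fibroblasts the ratio of summed counts was 90934-fold (95% counting interval 16320.2 to 3591760.0) (adjusted p = 3.2e-08). Krt6a and Krt16, the pair that wounding and hyperproliferation bring up, were the least even of the group, at 3.25 to 216 CPM (median 97.1) and 1.30 to 75.9 CPM (median 2.86) in keratinocytes, against 0 to 7.0 (median 0.0605) and 0 to 1.82 (median 0) in immune cells. Krt6a shares much of its sequence with Krt6b, so reads between them may be split. The suprabasal keratins were abundant in the same libraries. Of 9 suprabasal and palm and sole keratins 6 were tested, 4 were higher in both comparisons, and Krt9, the keratin of palm and sole skin, had no count in any of the 23 libraries. Krt1 was at 639 to 1103 CPM (median 926), 0 to 43.3 (median 6.22) and 0 to 0.413 (median 0), with log2 fold changes of 6.11 ± 1.04 (adjusted p = 0.000111) and 14.73 ± 1.5 (adjusted p = 1.25e-07). Its partner Krt10 was at 653 to 1426 CPM (median 918), 4.80 to 44.7 (median 12.2) and 0.0667 to 53.6 (median 17.2), with 5.94 ± 0.75 (adjusted p = 1.04e-06) and 5.78 ± 0.74 (adjusted p = 1.54e-06). Every keratinocyte library lay above all others for both. Of 5 tested keratins of simple epithelia 1 was higher than in immune cells, 2 were lower than in fibroblasts and none was higher or lower in both comparisons. Krt8, a keratin of Merkel cells and glands, was at 0 to 8.91 CPM (median 0.0809) in keratinocytes, and its value was within the range of the fibroblast libraries, 0 to 127 (median 0). Among the alternatives, calls were lost for Krt16 and Krt6a against immune cells (males alone).

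To show the regulatory sequence at the starts of genes that were high together, the windows from 250 bases before to 50 bases after the start are printed for a basal keratin (Krt5), a suprabasal keratin (Krt10) and the desmosomal plaque gene Dsp, from RefSeq with build GRCm38.p6. Krt5 lies at chr15:101712856-101713155 on the minus strand, Krt10 at chr11:99389315-99389614 on the minus strand and Dsp at chr13:38151044-38151343 on the plus strand; each is given 5′ to 3′ along its gene. Capitals mark the letters TATAAA, a core promoter motif, and GCCNNNGGC, the pattern bound by AP-2 factors, searched on both strands. The table has no entry for Krt15 and Perp, and its window for Krt14 starts within the gene and is not shown.
Krt5: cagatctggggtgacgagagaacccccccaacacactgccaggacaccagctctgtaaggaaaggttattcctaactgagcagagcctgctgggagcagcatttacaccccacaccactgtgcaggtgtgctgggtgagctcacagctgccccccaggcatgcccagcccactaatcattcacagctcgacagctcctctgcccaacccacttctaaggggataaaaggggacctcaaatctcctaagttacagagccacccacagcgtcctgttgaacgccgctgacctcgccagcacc
Krt10: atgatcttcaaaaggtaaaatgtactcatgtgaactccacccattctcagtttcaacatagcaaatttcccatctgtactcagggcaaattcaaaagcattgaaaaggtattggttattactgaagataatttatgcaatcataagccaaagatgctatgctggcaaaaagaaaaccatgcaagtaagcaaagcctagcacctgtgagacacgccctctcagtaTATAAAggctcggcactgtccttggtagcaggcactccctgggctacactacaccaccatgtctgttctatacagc
Dsp: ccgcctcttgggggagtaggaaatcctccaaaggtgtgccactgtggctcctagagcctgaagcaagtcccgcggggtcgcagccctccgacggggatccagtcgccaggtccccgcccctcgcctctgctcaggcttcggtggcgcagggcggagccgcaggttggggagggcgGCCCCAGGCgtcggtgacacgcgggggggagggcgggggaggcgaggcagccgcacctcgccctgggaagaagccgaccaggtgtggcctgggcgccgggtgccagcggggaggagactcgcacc
The Krt10 window holds 1 TATAAA, whose first base is 26 bases before the start, and the Dsp window holds 1 GCCNNNGGC 75 bases before the start. The Krt5 window holds neither in these letters. Among the 716 genes higher in both comparisons, 464 matched the table, with 578 windows. TATAAA was in 10.6% of them and GCCNNNGGC in 20.9%, against 7.76% and 24.8% of the 12666 windows of all tested genes. GGGCGG (the GC box, which can overlap GCCNNNGGC) was in 54.0% against 60.1%. These shares are descriptions of letters in a window, and were not tested.

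Desmosomes join keratinocytes to each other. Of 13 listed desmosome genes 11 were tested, and all 11 were higher in keratinocytes in both comparisons, with a median log2 fold change of 7.01 against immune cells and 12.73 against fibroblasts (10.85 with genes at 0 in all fibroblast libraries set to their lower bound). Dsp, which encodes desmoplakin, the link from the plaque to keratin filaments, was at 364 to 1620.5 CPM (median 1046), 0 to 41.3 (median 4.68) and 0 to 0.0889 (median 0); the log2 fold change against immune cells was 6.69 ± 1.18 (adjusted p = 0.000111), and the ratio of summed counts against fibroblasts 56587-fold (95% counting interval 15664 to 467263) (adjusted p = 1.54e-07). The desmosomal cadherin Dsg3, the form of the lower layers, was at 165 to 836 CPM (median 247), 0 to 8.71 (median 0) and 0 in all fibroblast libraries, which is at least 1584-fold higher than in fibroblasts (adjusted p = 2.77e-05) and a log2 fold change of 7.87 ± 1.58 against immune cells (adjusted p = 0.000863). Neither gene overlapped between keratinocytes and the others. The plakophilin gene Pkp1 was at 126 to 908 CPM (median 441) and Pkp3 at 115 to 651 CPM (median 559), with log2 fold changes against immune cells of 5.26 ± 0.97 (adjusted p = 0.000177) and 5.13 ± 0.81 (adjusted p = 2.8e-05). Jup, the plakoglobin shared by desmosomes and adherens junctions, had the smallest difference, at 1077 to 3105 CPM (median 1787), 221 to 693 (median 499.5) and 252 to 1187 (median 563) (log2 fold changes 1.92 ± 0.31, adjusted p = 3.64e-05, and 1.58 ± 0.31, adjusted p = 0.000331), and overlapped with the fibroblast libraries. The tested desmosomal cadherins Dsc3, Dsc2, Dsg1a, Dsg1b, Dsg3 and Dsg2 are 6 consecutive tested genes of chromosome 18 in the RefSeq order of GRCm38.p6. All 6 were higher in both comparisons. Dsc2 had no count in any immune or fibroblast library. It passed the filter on low counts through the keratinocytes alone and could only be called higher. Dsg1a, Dsg1b and Dsg3 had no count in any fibroblast library and could only be called higher against fibroblasts. The listed genes Dsc1 and Pkp2 did not pass the filter. Dsg1a and Dsg1b are near-identical copies whose reads may be split. Under some alternatives calls were lost for Dsg1a and Dsg2 against immune cells (males alone), Dsg1b against immune cells (females alone) and Dsg2 and Jup against fibroblasts (males alone).

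Attachment to the basement membrane was split by component. Of 16 hemidesmosome and basal adhesion genes, all tested, 9 were higher in both comparisons and 1, the integrin beta 1 gene Itgb1, was lower in both. Col17a1, the collagen that spans the hemidesmosome, was at 1417 to 3592 CPM (median 2353), 0 to 197 (median 9.14) and 0 to 12.4 (median 0.0673). The log2 fold changes were 7.11 ± 1.34 (adjusted p = 0.000241) and 12.64 ± 1.69 (adjusted p = 2.96e-06). Itgb4, the beta chain of the hemidesmosome integrin, was at 297 to 1607 CPM (median 644), 0.0527 to 100.3 (median 6.63) and 0.310 to 71.4 (median 43.2). On the log2 scale it differed by 6.01 ± 1.15 (adjusted p = 0.000272) and 4.31 ± 1.06 (adjusted p = 0.00318). Both lay above all other libraries in every keratinocyte library. Lamb3, a chain of laminin 332, was at 0.521 to 480.4 CPM (median 236) and had no count in any fibroblast library, which puts it at least 902-fold higher than there (adjusted p = 9.29e-06); against immune cells its log2 fold change was 7.90 ± 1.44 (adjusted p = 0.000351). The low value came from keratinocyte male 2. Fermt1, the kindlin of epithelia, was at 57.4 to 207 CPM (median 177), with 0 in all fibroblast libraries, at least 689-fold higher (adjusted p = 7.82e-05), and 0 to 25.9 (median 0) in immune cells (log2 fold change 9.30 ± 1.72, adjusted p = 0.000664). Itgb1, the partner of many alpha chains, was at 74.7 to 238 CPM (median 164), 399 to 687 (median 535) and 380.5 to 1334 (median 753) (log2 fold changes -1.85 ± 0.30, adjusted p = 3.87e-05, and -2.28 ± 0.31, adjusted p = 2.88e-06), with every keratinocyte library below all others. The plectin gene Plec was at similar levels, 482 to 1231 CPM (median 809), 523 to 938 (median 721) and 439 to 889.8 (median 649) (adjusted p = 0.389 and 0.25). Calls that depended on the setting were those of Col17a1, Fermt1, Itgb1, Itgb4 and Lamb3 against immune cells (males alone) and Itgb4 against fibroblasts (males alone).

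Among adherens and tight junction genes 6 of 16 tested were higher in both comparisons and none was lower in either. The cadherin genes were in this group. Cdh3, P-cadherin of the basal layer, was at 60.4 to 433 CPM (median 172), 0 to 3.80 (median 0) and 0 in all fibroblast libraries, a log2 fold change of 10.88 ± 1.52 against immune cells (adjusted p = 4.95e-05) and at least 817-fold higher than fibroblasts (adjusted p = 1.19e-05). Cdh1, E-cadherin, was at 107 to 354 CPM (median 228), 0 to 20.3 (median 3.91) and 0 to 8.27 (median 0). The fitted log2 differences were 5.19 ± 1.44 (adjusted p = 0.00893) and 10.78 ± 1.89 (adjusted p = 0.000158). Both separated the keratinocyte libraries completely. The catenin genes Ctnna1 and Ctnnb1, which the junctions of every cell type share, passed neither test: Ctnnb1 was at 133 to 1007 CPM (median 391), 181 to 254 (median 223) and 4.86 to 554 (median 323) (adjusted p = 0.164 and 0.633). Calls lost in an alternative were those of Cdh1 against immune cells (males alone) and Cdh1 against fibroblasts (males alone).

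**Figure D3:**
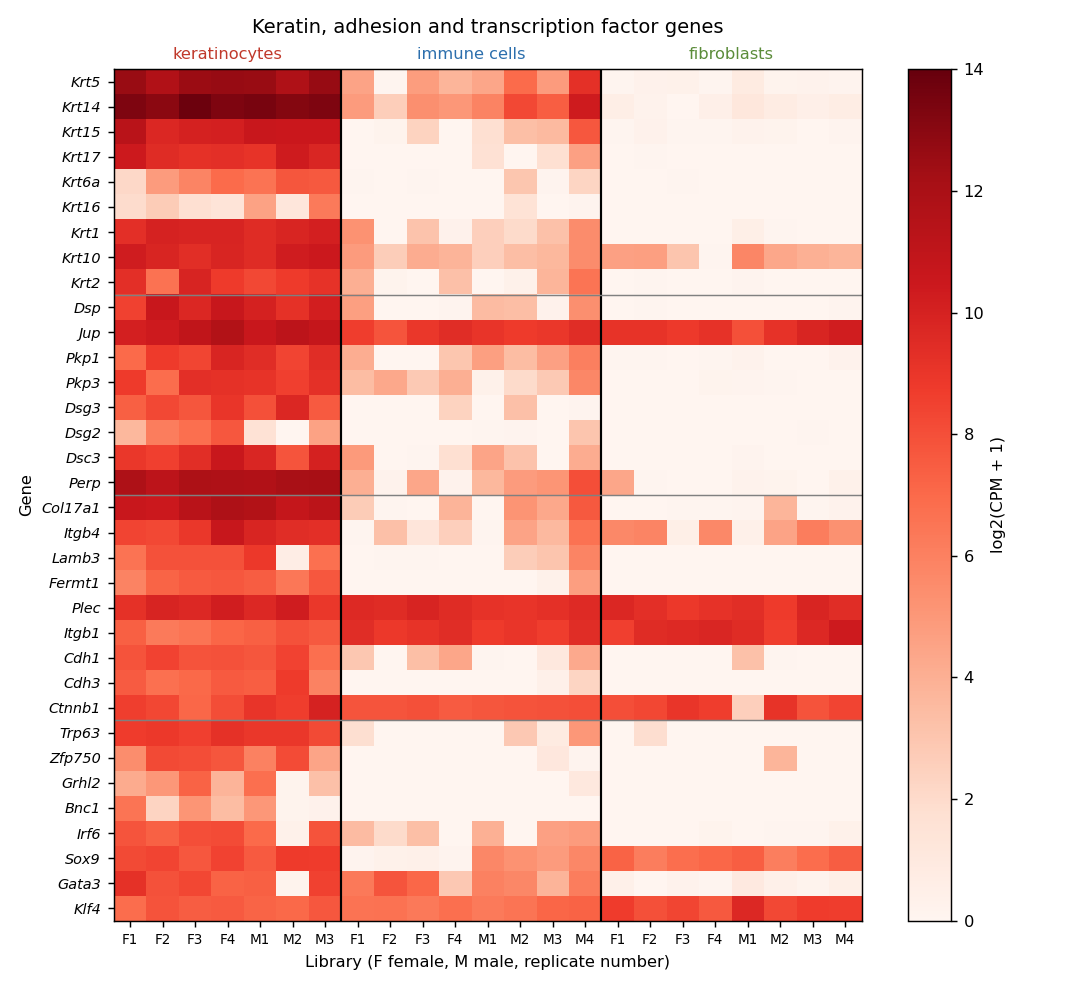
Level of 34 keratin, adhesion and transcription factor genes (rows) in the 23 vehicle libraries (columns), as log2(CPM + 1) on the colour scale. The 7 keratinocyte columns are dark for most rows, but Krt16 is pale in most of them. Keratinocyte male 2 is pale for Dsg2, Lamb3, Grhl2, Gata3 and Bnc1, among others. Dsg2 is also pale in keratinocyte male 1 and Bnc1 in keratinocyte male 3. Jup, Plec, Ctnnb1 and Klf4 are dark in all 3 populations, except that Ctnnb1 is pale in fibroblast male 1.

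Of 29 listed transcription factors of the epidermis 22 were tested, 16 were higher in keratinocytes in both comparisons and none was lower in both; the median log2 fold change was 6.76 against immune cells and 9.03 against fibroblasts (6.55 and 6.83 with genes at 0 set to their bound). Trp63, which encodes p63, was at 288 to 596 CPM (median 479), 0 to 30.9 (median 0.401) and 0 to 2.58 (median 0). This gave log2 fold changes of 7.5 ± 1.49 (adjusted p = 0.000554) and 12.49 ± 1.89 (adjusted p = 2.82e-05). Zfp750, a factor of terminal differentiation downstream of p63, was at 21.3 to 292 CPM (median 213), 0 to 1.2 (median 0) and 0 to 12.7 (median 0). Its log2 fold changes were 11.48 ± 1.97 (adjusted p = 0.000198) and 9.86 ± 1.87 (adjusted p = 0.000542). Keratinocyte and other libraries did not overlap for either. Bnc1, the basonuclin of proliferating basal cells, was at 0.130 to 90.1 CPM (median 9.79) and had no count in the 16 other libraries, at least 139-fold higher than immune cells (adjusted p = 0.00151) and at least 109-fold higher than fibroblasts (adjusted p = 0.00173). Bnc1 passed the filter on low counts through the keratinocytes alone and could only be called higher. Sox9, a factor of hair follicle and sweat gland cells, was at 187 to 444 CPM (median 335), 0.112 to 52.1 (median 14.2) and 66.6 to 176 (median 126) (log2 fold changes 6.76 ± 0.48, adjusted p = 4.29e-11, and 1.38 ± 0.38, adjusted p = 0.00778); every keratinocyte library was above the fibroblasts, which also held it. Gata3, which acts in both epidermis and lymphocytes, was higher than in fibroblasts only, at 0.130 to 602 CPM (median 240.3), 6.37 to 219 (median 66.6) and 0 to 0.930 (median 0.256) (adjusted p = 0.119 and 4.58e-07). Klf4, a factor of the upper layers, was the one member lower than in fibroblasts, at 116 to 233 CPM (median 173), 76.3 to 152 (median 97.5) and 194 to 817 (median 362) (log2 fold change -1.17 ± 0.33, adjusted p = 0.00907; against immune cells 0.70 ± 0.32, adjusted p = 0.1). Among the alternatives, calls were lost for Trp63 and Zfp750 against immune cells (males alone), Klf4 against fibroblasts (males alone, females alone, a 2-fold minimum and library size alone), Sox9 against fibroblasts (males alone, females alone, a 2-fold minimum and no sex term) and Zfp750 against fibroblasts (males alone).

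The Hox genes, which record position along the body and limb, were chosen for description after their values were seen. Of 9 HoxC genes 6 were tested, Hoxc13, Hoxc12, Hoxc11, Hoxc10, Hoxc9 and Hoxc6, and were called higher in both comparisons. All but Hoxc9 had no count in the 16 other libraries, so they passed the filter on low counts through the keratinocytes alone and could only be called higher. Hoxc4, Hoxc5 and Hoxc8 did not pass the filter. The levels were low and uneven: Hoxc10 was at 0 to 18.5 CPM (median 8.45) and 0 in all 16 other libraries, at least 40.6-fold higher than in immune cells (adjusted p = 0.00673) and at least 32.0-fold higher than in fibroblasts (adjusted p = 0.00758). Hoxc13, a factor of hair and nail, was counted in 3 of the 7 keratinocyte libraries, at 10.3, 39.9 and 49.6 CPM, and in no other library. Hoxc6 lost both calls without keratinocyte male 3 (adjusted p = 1.0 in each comparison), and Hoxc9 without keratinocyte male 1 (adjusted p = 0.101 and 0.104). Of 10 HoxB genes 2 were tested. Hoxb2 was called higher in both comparisons, with 219.8 CPM in keratinocyte male 2 and 0 to 16.4 in the other 6 keratinocyte libraries; without keratinocyte male 2 it lost the call against immune cells (adjusted p = 0.0728). Some HoxA and HoxD genes were lower than in fibroblasts. Hoxd13 had no count in any keratinocyte library and was at 0.200 to 156 (median 32.1) CPM in fibroblasts, at least 81.0-fold higher there (adjusted p = 0.00015), and Hoxa11 likewise at 1.45 to 53.9 (median 17.7) CPM, at least 47.6-fold higher (adjusted p = 0.000816); an antisense gene overlaps Hoxa11, and whether strand was used in counting is not given in the sources used here. All 3 tested HoxD genes, Hoxd10, Hoxd11 and Hoxd13, were lower than in fibroblasts. Like Hoxa11, they had no count in any keratinocyte library and could only be called lower. Hoxd3, Hoxd4, Hoxd8 and Hoxd9 did not pass the filter. Hoxa7 and Hoxa9, at 0 to 151 CPM (median 106) and 0 to 158 CPM (median 81.6) in keratinocytes, were higher than in immune cells (log2 fold changes 5.14 ± 1.63, adjusted p = 0.0179, and 7.92 ± 1.99, adjusted p = 0.00375) and did not pass the test against fibroblasts (adjusted p = 0.263 and 0.0942). Under some alternatives calls were lost for Hoxa7 against immune cells (males alone and females alone), Hoxa9 against immune cells (males alone), Hoxc12 and Hoxc6 against immune cells (DESeq2), Hoxc9 against immune cells (no sex term), Hoxc12 and Hoxc6 against fibroblasts (DESeq2) and Hoxd11 against fibroblasts (males alone). Hoxc6, Hoxc10, Hoxc11, Hoxc12 and Hoxc13 lost both calls with the replicate block.

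**Figure D4:**
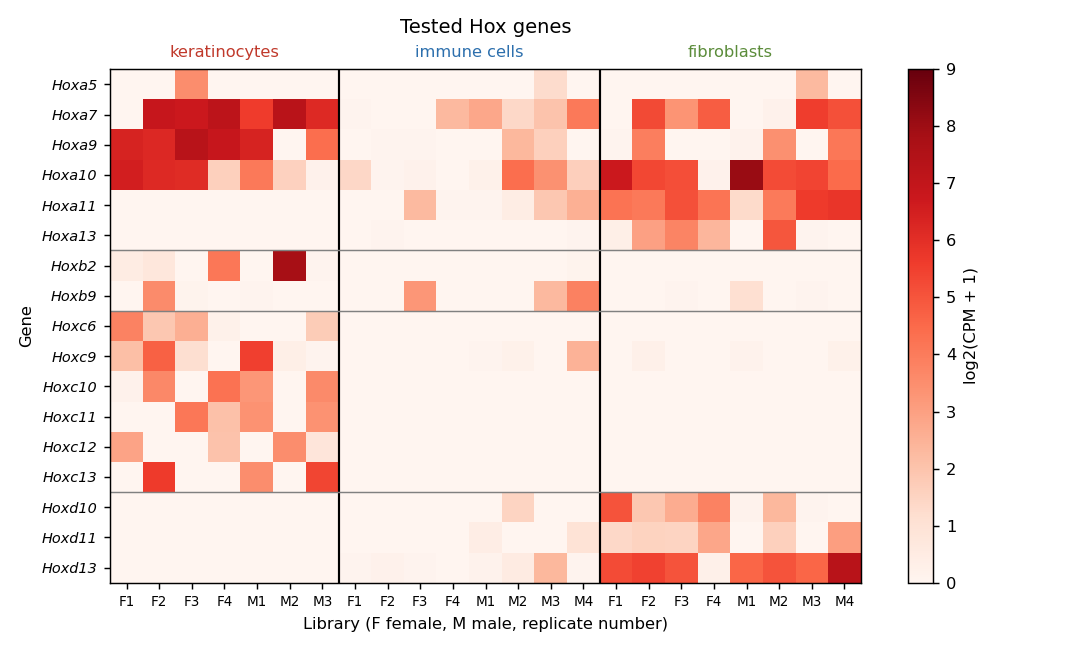
Level of the 17 tested Hox genes (rows, in order within each cluster) in the 23 vehicle libraries (columns), as log2(CPM + 1) on the colour scale. HoxC genes have counts almost only in keratinocyte libraries, Hoxa11, Hoxa13 and the HoxD genes have none there and are found in fibroblast libraries, and Hoxa7, Hoxa9 and Hoxa10 are found in both.

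Of 33 genes of the cornified envelope and late differentiation, the proteins of the upper epidermis and its barrier, 16 were tested. Of these, 12 were higher in both comparisons and none was lower. A further 11, among them Ivl, Flg2 and Hrnr, had no count in any of the 23 libraries. Krtdap, a secreted protein of differentiating keratinocytes, was at 908 to 2428 CPM (median 1369.6), 0.0655 to 95.3 (median 9.52) and 14.4 to 49.7 (median 25.2). The log2 fold changes were 6.95 ± 0.68 (adjusted p = 1.87e-08) and 5.68 ± 0.65 (adjusted p = 2.42e-07). Lgals7, galectin 7 of layered epithelia, was at 2676 to 6113 CPM (median 3089), 2.69 to 151 (median 11.9) and 0 to 9.04 (median 0). On the log2 scale it differed by 7.23 ± 1.03 (adjusted p = 6.71e-06) and 13.42 ± 1.32 (adjusted p = 2.2e-08). Neither overlapped. Sfn, the 14-3-3 sigma that p53 and p63 control, was at 219.9 to 694 CPM (median 253) and 0.841 to 25.4 (median 7.40) in immune cells (log2 fold change 5.65 ± 0.72, adjusted p = 1.29e-06), and its counts in fibroblasts gave a ratio of 12781-fold (95% counting interval 4373 to 61981) (adjusted p = 2.35e-10). Tgm3, a transglutaminase that cross-links the envelope, was at 5.85 to 271 CPM (median 94.4) with 0 in all fibroblast libraries, at least 508-fold higher (adjusted p = 6.65e-05), and 9.86 ± 1.69 on the log2 scale against immune cells (adjusted p = 0.000351). Its relative Tgm1 passed neither test, at 0 to 13.6 CPM (median 0), 0 to 27.2 (median 10.4) and 0 to 28.3 (median 0) (adjusted p = 0.0674 and 0.403). In the lipid barrier list 4 of 13 tested genes were higher in both comparisons and 2 lower, against 5.08% and 14.4% of all tested genes. The list had median log2 fold changes of 0.23 and 0.02. Acer1, a ceramidase of the epidermis, was at 0 to 308 CPM (median 62.8) and 0 to 32.1 (median 0) in immune cells (log2 fold change 8.29 ± 1.63, adjusted p = 0.000504), with 0 in keratinocyte male 2. Calls that depended on the setting were those of Acer1 and Tgm3 against immune cells (males alone).

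Of 15 tested epidermal proteases and inhibitors 9 were higher in both comparisons and none was lower in either. St14, the membrane protease matriptase, was at 2.61 to 181 CPM (median 78.5), 0 to 0.262 (median 0) and 0 in all fibroblast libraries, a log2 fold change of 10.89 ± 1.52 (adjusted p = 2.02e-05) and at least 384-fold (adjusted p = 6.34e-06). Serpinb5, maspin, was at 21.4 to 717 CPM (median 323) and 0 to 31.3 (median 0.0589) in immune cells (log2 fold change 6.54 ± 1.5, adjusted p = 0.00213), with a count ratio over fibroblasts of 43606-fold (95% counting interval 7826 to 1722400.0) (adjusted p = 1.95e-05). Cst6, cystatin M, an inhibitor of the proteases that shed corneocytes, was at 202 to 3132 CPM (median 429.6), 0 to 7.39 (median 0) and 0 to 24.2 (median 0). The fitted log2 differences were 12.42 ± 2.02 (adjusted p = 6.45e-05) and 8.02 ± 1.64 (adjusted p = 0.000745). Every keratinocyte library was above all others for St14 and Cst6. Of 8 tested antimicrobial genes 3 were higher in both comparisons. The beta-defensin gene Defb6 was at 131 to 1699 CPM (median 364), 0 to 7.59 (median 0) and 0 in all fibroblast libraries (log2 fold change 11.88 ± 1.65, adjusted p = 4.48e-05; at least 2272-fold, adjusted p = 1.15e-05). Defb1 was lower in level, at 1.30 to 113 CPM (median 21.0), 0 to 1.22 (median 0) and 0 in all fibroblast libraries (log2 fold change 9.13 ± 1.83, adjusted p = 0.00131; at least 167-fold, adjusted p = 0.000327). Neither defensin overlapped with another population. Calls lost in an alternative were those of Defb1 and Serpinb5 against immune cells (males alone).

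Of the channel and connexin genes 4 of 13 tested were higher in both comparisons and none was lower in both. Aqp3, the water and glycerol channel of the epidermis, was at 490.1 to 1154 CPM (median 759.8) and 0.105 to 80.1 (median 7.43) in immune cells (log2 fold change 5.61 ± 0.83, adjusted p = 2.07e-05), with a count ratio over fibroblasts of 98065-fold (95% counting interval 17600.1 to 3873430.0) (adjusted p = 4.03e-09). Its keratinocyte libraries did not overlap with the others. Gja1, the widely used connexin 43, was at 206 to 889.7 CPM (median 587), 48.4 to 351 (median 108) and 469 to 1509.7 (median 1039.6), higher than in immune cells (log2 fold change 2.25 ± 0.39, adjusted p = 8.25e-05) and not distinguished from fibroblasts (-0.75 ± 0.38, adjusted p = 0.143).

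Of 17 tested Wnt pathway genes 3 were higher in both comparisons, the ligand genes Wnt3, Wnt4 and Wnt10a, and none was lower in both; over all tested genes 5.08% were higher in both. Wnt3 was at 0 to 202 CPM (median 110.0), 0 to 4.05 (median 0) and 0 in all fibroblast libraries (log2 fold change 9.94 ± 2.36, adjusted p = 0.00453; at least 423-fold, adjusted p = 0.00136). Wnt10a was at 0.391 to 266 CPM (median 140.2), 0 to 22.2 (median 0.0264) and 0 to 21.8 (median 0.141). This gave log2 fold changes of 6.44 ± 1.74 (adjusted p = 0.00665) and 6.48 ± 1.75 (adjusted p = 0.00664). Both ranged down to under 1 CPM in a keratinocyte library. In the Notch pathway 1 of 11 tested genes was higher in both comparisons and 2 were lower, numbers too small to set against the 5.08% and 14.4% of all tested genes. The one higher was the ligand gene Jag2, at 165 to 427 CPM (median 308), 0 to 13.7 (median 3.07) and 0 in all fibroblast libraries (log2 fold change 5.75 ± 1.40, adjusted p = 0.00426; at least 1278-fold, adjusted p = 2.3e-05). The receptor gene Notch1 was at 311 to 1261 CPM (median 793), 133 to 298 (median 227) and 0.504 to 59.7 (median 6.92), with every keratinocyte library above all others, and passed the test against fibroblasts (5.86 ± 0.81, adjusted p = 4.51e-06) but not against immune cells (1.75 ± 0.68, adjusted p = 0.0516). Notch2 was lower in both, at 47.6 to 209 CPM (median 128), 186 to 337 (median 229) and 186 to 334 (median 246). Its log2 fold changes were -1.15 ± 0.32 (adjusted p = 0.0085) and -1.30 ± 0.32 (adjusted p = 0.00349). Among the alternatives, calls were lost for Jag2, Wnt10a, Wnt3 and Wnt4 against immune cells (males alone), Notch2 against immune cells (males alone, females alone and a 2-fold minimum), Notch2 against fibroblasts (males alone, females alone, a 2-fold minimum and library size alone), Wnt10a against fibroblasts (females alone) and Wnt4 against fibroblasts (males alone).

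Of 22 tested cytokine, chemokine and growth factor genes 2 were higher in both comparisons and 7 lower, against 5.08% and 14.4% of all tested genes. Their median log2 fold changes were -0.74 and -2.46. Those lower included Il1a, Il1b, Il18 and Tslp, which encode signals that keratinocytes are known to release when injured or inflamed. Il1a had 3 counts in all 7 keratinocyte libraries together, against 42.5 to 375 (median 114) CPM in immune cells and 0.122 to 1.24 (median 0.346) in fibroblasts; the ratio of summed counts was 3816-fold (95% counting interval 1306 to 18507) higher in immune cells (adjusted p = 7.66e-08) and 10.5-fold (95% counting interval 3.40 to 52.7) higher in fibroblasts (adjusted p = 0.0159). Il1b was at 1.32 to 3.25 CPM (median 1.47), 489 to 1406 (median 1103) and 1.13 to 13.4 (median 3.48). The log2 fold changes were -9.23 ± 0.55 (adjusted p = 2.79e-12) and -1.32 ± 0.38 (adjusted p = 0.0105). Tslp had 1 count in the keratinocyte libraries and was at 0.517 to 119 (median 30.7) CPM in fibroblasts, 2641-fold (95% counting interval 474 to 104344) higher there (adjusted p = 1.29e-05). Il18 had none, and was at least 34.5-fold higher in immune cells (adjusted p = 0.000292) and at least 28.9-fold higher in fibroblasts (adjusted p = 0.000339). The gene higher in all 7 libraries than in any other was Fgfbp1, a carrier that releases fibroblast growth factors from the matrix, at 213 to 444 CPM (median 339.7) and 0 to 15.8 (median 3.07) in immune cells (log2 fold change 6.88 ± 1.06, adjusted p = 2.05e-05). Cxcl14, a chemokine made by many resting epithelia, was higher than in immune cells only, at 111 to 1089 CPM (median 208), 0.561 to 51.7 (median 23) and 397 to 973 (median 537) (log2 fold change 4.96 ± 0.55, adjusted p = 1.45e-07; against fibroblasts -0.78 ± 0.49, adjusted p = 0.247). Under some alternatives calls were lost for Il1a against fibroblasts (males alone, females alone and voom) and Il1b against fibroblasts (females alone, voom, a 2-fold minimum, library size alone and only the 2 populations fitted).

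Of 19 tested receptor genes 1 was higher in both comparisons, near the 5.08% of all tested genes, and 6 were lower, against 14.4% of all. The receptors for fibroblast growth factors parted: Fgfr3 was at 11.7 to 927 CPM (median 693), 0.0601 to 65.5 (median 3.61) and 1.89 to 169 (median 46.1) (log2 fold changes 6.07 ± 1.28, adjusted p = 0.00075, and 3.38 ± 1.13, adjusted p = 0.0249), while Fgfr1 was lower, at 0.652 to 222 CPM (median 159.7), 448 to 749.7 (median 666) and 758 to 1765 (median 1011) (-2.24 ± 0.55, adjusted p = 0.003, and -3.09 ± 0.57, adjusted p = 0.000191). Fgfr2, which binds the fibroblast product FGF7, was higher than in immune cells, at 48.2 to 326 CPM (median 161) (5.61 ± 0.91, adjusted p = 3.75e-05), and its level in fibroblasts was 7.38 to 739 (median 108) (0.57 ± 0.76, adjusted p = 0.648). The lowest keratinocyte values of Fgfr3 and Fgfr1 came from keratinocyte female 1 and keratinocyte male 2. In the EGF receptor family none of 9 tested genes was higher in both comparisons, against 5.08% of all tested genes. Egfr was at 55.6 to 343 CPM (median 306), higher than the 37.1 to 123 (median 71.3) of immune cells (1.51 ± 0.39, adjusted p = 0.00485). In fibroblasts it was at 298 to 911 (median 394) (-0.99 ± 0.40, adjusted p = 0.0607). Calls that depended on the setting were those of Egfr against immune cells (males alone and a 2-fold minimum), Fgfr1 against immune cells (males alone) and Fgfr3 against fibroblasts (males alone and females alone).

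Of 22 tested genes through which keratinocytes can signal to sensory nerves 2 were higher in both comparisons, Trpv3 and the neurotrophin gene Ntf5, and 6 were lower in both, against 5.08% and 14.4% of all tested genes. The list had median log2 fold changes of -2.33 and -3.17. Trpv3, a warmth-gated cation channel of keratinocytes, had no count in any of the 16 other libraries and was at 0 to 154 CPM (median 9.50), at least 194-fold higher than immune cells (adjusted p = 0.00219) and at least 153-fold higher than fibroblasts (adjusted p = 0.00248). Trpv3 passed the filter on low counts through the keratinocytes alone and could only be called higher. It ranged from 0 in keratinocyte female 1 and 0.0756 CPM in keratinocyte male 3 to 154 CPM in keratinocyte male 2. Ntf5, a neurotrophin gene, was counted in 3 of the 7 keratinocyte libraries, at 31.7, 26.3 and 21.0 CPM, and lost both calls without keratinocyte female 3 (adjusted p = 1.0 in each comparison). P2ry2, a receptor for ATP and UTP, was at 0 to 1.36 CPM (median 0.130), 9.12 to 52.6 (median 20.2) and 0.178 to 212 (median 57.4). On the log2 scale it differed by -7.21 ± 1.41 (adjusted p = 0.000371) and -8.58 ± 1.5 (adjusted p = 0.000105). Ednrb, an endothelin receptor, was at 0.521 to 1.43 CPM (median 0.832), 331 to 1229.9 (median 476) and 0.611 to 25.5 (median 2.63) (-9.40 ± 1.01, adjusted p = 9.05e-08, and -3.39 ± 0.76, adjusted p = 0.00139). Penk, the precursor of enkephalins, was at 0 to 0.679 CPM (median 0.132), 0.195 to 85.4 (median 16.3) and 93.5 to 1592 (median 267) (-6.20 ± 0.84, adjusted p = 3.55e-06, and -11.33 ± 1.02, adjusted p = 4.99e-09). For these 3 genes the highest keratinocyte library stayed below 2 CPM. Ptgs2, the inducible cyclooxygenase, was at 0 to 60.3 CPM (median 0.260), 31.9 to 126 (median 77.1) and 114 to 670.3 (median 262) (-5.23 ± 0.90, adjusted p = 8e-05, and -7.14 ± 0.99, adjusted p = 4.8e-06). Trpv4, a channel of warmth and stretch, passed neither test, at 0.521 to 96.8 CPM (median 14.8), 67.5 to 142 (median 103) and 0.0667 to 75.2 (median 0.499) (adjusted p = 0.198 and 0.298). Calls lost in an alternative were those of Ntf5 against immune cells (males alone and no sex term), Penk and Ptgs2 against immune cells (females alone), Ednrb against fibroblasts (females alone, voom and only the 2 populations fitted) and Ptgs2 against fibroblasts (females alone). Ntf5 also lost both calls with the replicate block.

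**Figure D5:**
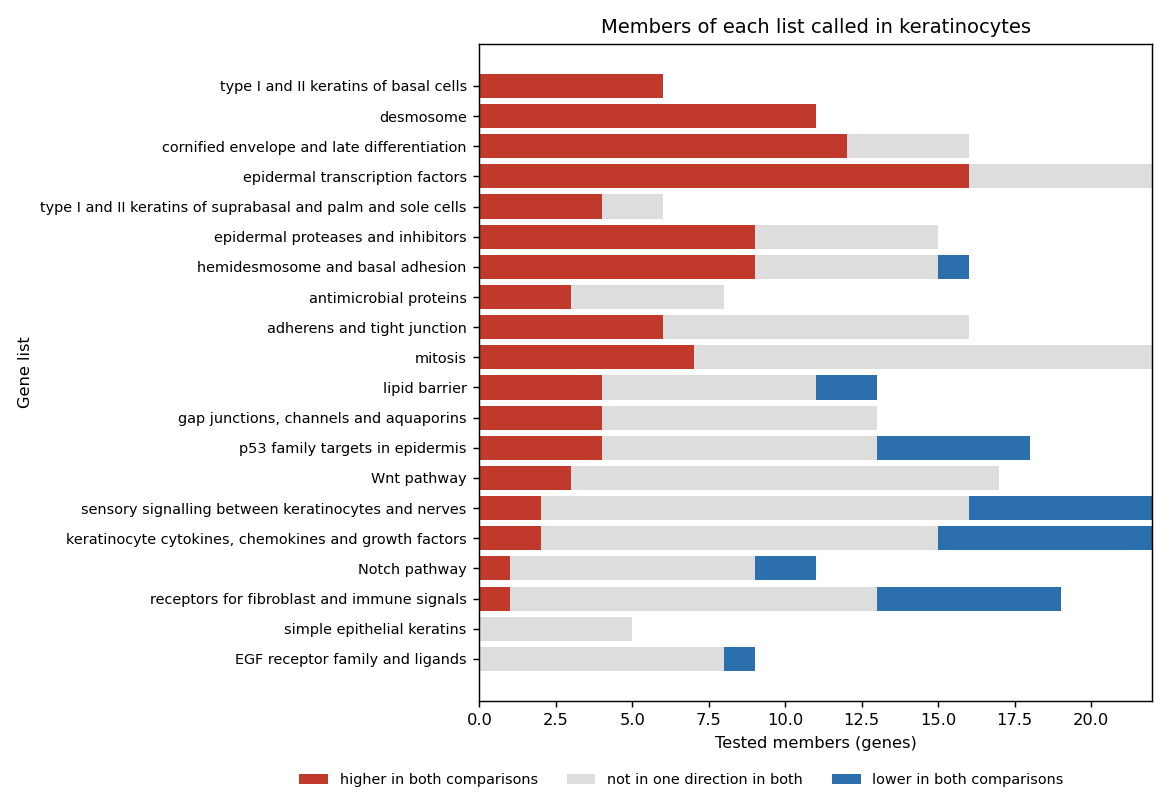
Number of tested members of each of the 20 gene lists that were called higher in keratinocytes in both comparisons, lower in both, or not in one direction in both, as stacked bars from 0; the lists are ordered by the share higher in both. All 11 desmosome genes and all 6 basal keratin genes are higher in both. The cytokine, receptor, sensory signalling, EGF receptor, Notch and p53 target lists have more members lower in both than higher. So do all tested genes, with 14.4% lower and 5.08% higher in both.

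Of 22 tested mitosis genes 20 were higher than in fibroblasts, against 10.5% of all tested genes. Against immune cells 8 were higher, with 8.61% of all, and 7 were higher in both comparisons, with 5.08% of all; the difference between the comparisons was not tested. In the list 11 were higher in both with library size alone as the scale. Cdk1, the kinase that drives entry into mitosis, was at 0 to 316 CPM (median 136), 0 to 19.2 (median 4.29) and 0 to 12.1 (median 0). The fitted log2 differences were 4.16 ± 1.62 (adjusted p = 0.0513) and 8.13 ± 1.96 (adjusted p = 0.00269). Prc1, which bundles the microtubules of the dividing cell's midzone, was at 11.1 to 242 CPM (median 49.6), 0.745 to 18.4 (median 6.84) and 0 to 0.122 (median 0) (3.34 ± 0.98, adjusted p = 0.011, and count ratio over fibroblasts 2734-fold (95% counting interval 935 to 13263), adjusted p = 7.07e-07). Targets of p53 were called in both directions. Of 18 tested, 4 were higher in both comparisons, among them Perp, Sfn and Jag2, and 5 were lower, among them Cdkn1a and Gadd45a. Over all tested genes 5.08% were higher in both and 14.4% lower in both. Cdkn1a, the cell cycle inhibitor p21, was at 16.3 to 211 CPM (median 62.9), 694 to 1531 (median 1055) and 351 to 863 (median 591) (-3.44 ± 0.44, adjusted p = 1.3e-06, and -2.63 ± 0.42, adjusted p = 3.34e-05), with every keratinocyte library below all others. Gadd45a, a stress gene, was at 0.132 to 49.8 CPM (median 0.953), 4.85 to 38.0 (median 19.2) and 18.8 to 219 (median 64.5) (-3.71 ± 0.97, adjusted p = 0.00515, and -5.73 ± 1.09, adjusted p = 0.000239), its one high keratinocyte library being keratinocyte female 1. Among the alternatives, calls were lost for Gadd45a against immune cells (females alone and no sex term), Prc1 against immune cells (males alone and females alone) and Cdk1 and Gadd45a against fibroblasts (females alone).

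Of the 10 most abundant of the 716 genes, Eef2, Rpl4 and Rpl8 are among those that belong to protein synthesis in the cytosol, and Lars2 charges leucine to its tRNA in mitochondria. Eef2, the elongation factor that moves the ribosome along, was at 1853 to 3347 CPM (median 2650.0), 716 to 1213 (median 973) and 745 to 1693 (median 962). This gave log2 fold changes of 1.5 ± 0.21 (adjusted p = 3.7e-06) and 1.38 ± 0.21 (adjusted p = 1.2e-05). The ribosomal protein gene Rpl8 was at 1709 to 4285 CPM (median 2299), 358 to 670.0 (median 538) and 212 to 558 (median 285) (2.29 ± 0.25, adjusted p = 7.69e-08, and 3.06 ± 0.25, adjusted p = 9.42e-10). In both genes all 7 keratinocyte libraries lay above the other 16. This prompted a list added after seeing the values. Of 79 tested cytosolic ribosomal protein genes 46 were higher in both comparisons, against 5.08% of all tested genes, and none was lower in either. For 41 every keratinocyte library lay above all others, against 2.13% of all tested genes. The medians were 2.07 and 2.60 against -0.48 and -0.40 over all tested genes. With library size alone as the scale 53 were higher in both. Many ribosomal protein genes have near-identical pseudogenes, so their counts depend on how reads with several places were handled, and reads without a unique place were more frequent in the keratinocyte libraries, as given above. Lars2 was at 1379 to 5438 CPM (median 1785), 352 to 658 (median 463) and 257 to 659 (median 352) (2.19 ± 0.24, adjusted p = 1.28e-07, and 2.58 ± 0.25, adjusted p = 1.22e-08).

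The 20 genes with the largest difference from both populations were mostly genes of low or moderate level that the other libraries did not hold. Of these, 14 had no count in any of the 16 other libraries: Acox2, Alox12e, Art4, Csta, Cyp2b19, Dsc2, Frem2, H60c, Pla2g2f, Sec14l4, Serpinb3b, Trpv3, Ttll10 and Vwa2. These 14 passed the filter on low counts through the keratinocytes alone and could only be called higher. Vwa2 lost both calls without keratinocyte male 1 (adjusted p = 1.0 in each comparison), and the others kept theirs in every fit without 1 library that tested them. Cyp2b19, an epidermal cytochrome P450 that acts on arachidonic acid, was at 0 to 212 CPM (median 70.9), at least 484-fold higher than immune cells (adjusted p = 0.000241) and at least 382-fold higher than fibroblasts (adjusted p = 0.000275). H60c, a ligand of the activating receptor NKG2D found in skin, was at 0.130 to 133 CPM (median 57.3), at least 341-fold and 269-fold higher (adjusted p = 0.000207 and 0.000237). Pla2g2f, a secreted phospholipase of the epidermis, was at 0 to 302 CPM (median 40.0), at least 415-fold and 327-fold higher (adjusted p = 0.00234 and 0.00263). Each of these 3 was near or at 0 in 1 or more keratinocyte libraries. More even were Clca2, a p53 target of the basal layer, at 74.3 to 434 CPM (median 148) with 0 to 1.09 (median 0) in immune cells (11.93 ± 1.52, adjusted p = 1.81e-05; at least 873-fold over fibroblasts, adjusted p = 7.47e-06), and S100a14, a calcium-binding protein of epithelia, at 219 to 1156 CPM (median 549) with 0 to 15.9 (median 0) in immune cells (11.43 ± 1.11, adjusted p = 1.84e-07; count ratio over fibroblasts 32422-fold (95% counting interval 8975 to 267730.0), adjusted p = 2.54e-08). Neither overlapped with another population.

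Some genes were higher than in 1 of the other populations and within a log2 difference of 1 of the other. Higher than in immune cells and not called against fibroblasts were Smo, the transducer of hedgehog signals, at 8.58 to 80.9 CPM (median 58.3), 0 to 17.2 (median 0.0605) and 9.81 to 87.5 (median 39.0) (6.52 ± 1.07, adjusted p = 4.01e-05, and 0.54 ± 0.85, adjusted p = 0.71), and Irs1, an adaptor of insulin receptors, at 0.130 to 123 CPM (median 57.0), 0.0561 to 15.4 (median 2.78) and 1.34 to 164 (median 74.2) (6.03 ± 1.16, adjusted p = 0.000289, and -0.30 ± 0.95, adjusted p = 0.889). Stxbp2, a partner of syntaxins in granule release, was higher than in fibroblasts and not called against immune cells, at 1.43 to 133 CPM (median 88.9), 73.7 to 202 (median 137) and 0.0629 to 1.76 (median 0.277) (-0.71 ± 0.66, adjusted p = 0.457, and 7.93 ± 0.86, adjusted p = 1.08e-07). Rab27b, a GTPase of secretory vesicles, was at 0 to 225 CPM (median 74.0), 2.92 to 103 (median 41.3) and 0 to 6.10 (median 0.128) (0.87 ± 1.04, adjusted p = 0.58, and 7.63 ± 1.35, adjusted p = 0.000122). In all, 478 genes were higher than in immune cells and passed no test against fibroblasts, and 733 the reverse. A test not passed does not show that the levels were equal. Under some alternatives calls were lost for Irs1 and Smo against immune cells (males alone).

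The genes most depleted in keratinocytes relative to both populations had few counts in them. Ccl2, the chemokine that draws monocytes, was at 0.151 to 2.04 CPM (median 0.264), 998 to 3362 (median 1863) and 1024 to 3408 (median 2023). Its log2 fold changes were -12.43 ± 0.60 (adjusted p = 1.15e-13) and -12.47 ± 0.60 (adjusted p = 6.86e-14). Qpct, an enzyme that caps peptide ends, was at 0 to 0.390 CPM (median 0), 94.9 to 204 (median 125) and 74.0 to 511 (median 169) (-11.60 ± 0.78, adjusted p = 5.2e-11, and -12.26 ± 0.79, adjusted p = 3.53e-11). Mmp19, a matrix metalloproteinase, had 1 count in the 7 keratinocyte libraries against 68.2 to 237 (median 155) CPM in immune cells and 19.8 to 92.5 (median 67.7) in fibroblasts, a ratio of 11018-fold (95% counting interval 1977 to 435205) (adjusted p = 5.89e-10) and 4319-fold (95% counting interval 775 to 170616) (adjusted p = 2.68e-09). No keratinocyte library reached the lowest of the others for any of the 3. Calls that depended on the setting were those of Ccl2 against immune cells (voom) and Ccl2 against fibroblasts (voom).

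Few genes were called between female and male keratinocytes in the main fit, and none of the 716 was among them. With 4 libraries against 3, genes not called may still differ. Of 14104 genes 326 (2.31%) were called, 214 higher in females and 112 higher in males. Xist, the RNA that silences 1 X chromosome, was at 1692 to 2231 CPM in females and 0.454 to 0.528 in males, as the labels' sexes require. Cd36, a fatty acid transporter, was at 0.347 to 3.39 CPM in females and 72.7 to 163 in males, and Tuba1a, a tubulin gene, at 0 to 0.650 and 8.17 to 153. In both of these genes the sexes did not overlap (female minus male log2 difference -6.50 ± 0.83, adjusted p = 0.000124, for Cd36, -7.08 ± 0.93, adjusted p = 0.000181, for Tuba1a). The number of such genes depended on the tool and on single libraries: limma voom with quality weights called 5 and DESeq2 1988. It was 194 without keratinocyte male 2 and 579 without keratinocyte male 1. Cd36 and Tuba1a kept their calls without any 1 library and by DESeq2, and lost them with voom (adjusted p = 0.942 and 0.305). The difference from immune cells depended on sex for 258 genes (1.83%), and the difference from fibroblasts for 144 (1.02%). Col1a2, the collagen gene of the fibroblast sort, was among the first: it was at 7.85 to 46.5 CPM in the immune libraries of females and 493 to 1292 in those of males, and at 4.03 to 25.8 and 0.908 to 1.17 in the keratinocyte libraries of females and males. The female difference of keratinocytes from immune cells minus the male one on the log2 scale was 9.02 ± 0.85, adjusted p = 1.42e-06. Among the 716 genes, 9 differed by sex against immune cells and 1 against fibroblasts.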

How the data were processed

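Polyadenylated RNA of sorted cells from mouse hind paw skin was sequenced as single-end TruSeq stranded libraries, per the labels' protocols. The deposited files hold raw read counts per gene symbol that the authors made with bcl2fastq, TopHat2 and HTSeq on build mm9, per the submitters' processing notes. On versions, gene annotation and the strand option nothing is given in the sources used here. HTSeq's lines for unassigned reads entered neither library sizes nor tests, and their shares are in the report.

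The 23 vehicle libraries, of population and sex as the labels give them, entered 1 fit of edgeR 4.0.16 in R 4.3.3: TMM scaling, edgeR's filterByExpr over the 6 groups (14104 of 22609 symbols kept), robust quasi-likelihood tests with 1 coefficient per population and sex, and contrasts that weight the sexes equally. P-values were two-sided and Benjamini-Hochberg adjusted over all tested genes, with calls at 0.05. The standard error is the fold change divided by the root of the F statistic. Against a population without counts a fold is a lower bound from 3 counts per library, and with 1 to 3 counts a ratio of summed counts with its exact 95% interval; both cover counting error only. No 2 libraries agreed within sampling noise. The test was also run on simulated counts with known folds raised in keratinocytes. No gene was set to 0 in a population there and no populations were mixed, and the outcome is not given here. Alternatives were RLE scaling, library size alone, no filter on low counts, DESeq2 1.42.0, limma 3.58.1 voom with quality weights, no sex term, each sex alone, a 2-fold minimum, only the populations compared, a replicate block and each library left out.

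The members and gene lists were chosen with earlier results of these data known. The text names the 4 marker genes, the 20 genes with the largest smaller difference and at least 10 CPM in both sexes, the 10 most abundant, up to 6 shared with either population and 5 lowest genes of at least 50 CPM there, up to 6 called and 3 other members of each list, and the sex genes of lowest p; the more informative of these are printed. Chosen after their values were seen were the ribosomal and Hox lists, the genes of the heatmap, and Dsp, Jup, Pkp1, Pkp3, Dsc3, Itgb4, Trp63, Sox9, Gata3, Klf4, Krtdap, Notch1, Cxcl14, Il1b, Fgfr2, Egfr, Gja1, Cdk1, Pecam1 and Ptprc. RefSeq sequences and gene order are of GRCm38.p6, not of the build used for the reads, and were matched by symbol.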

Additional observations from a re-analysis of the deposited data

Results flagged for a closer look

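For 27 of 123 named genes 1 of the 7 keratinocyte libraries stood apart from the others, by Dixon's gap ratio at its 95% level on the log2(CPM + 1) scale. For values that are normally distributed chance gives about 1 in 20. Values at or near 0 are not such, as for Mmp19, Tslp and Tgm1, where all other libraries were at 0, so the number found is not set against chance. Of these 27, keratinocyte male 2 was the library in 12 and keratinocyte female 1 in 6. Keratinocyte male 2 had no count of Acer1, Csta and Hoxa9, where the other 6 libraries were at 38.4 to 308, 21.2 to 140 and 19.7 to 158 CPM. It was low in Fgfr1 at 0.652 CPM (others 68.6 to 222), Gata3 at 0.130 (others 152 to 602) and H60c at 0.130 (others 22.1 to 133). Lamb3 was at 0.521 CPM there (others 94.5 to 480), Serpinb5 at 21.4 (others 262 to 717), St14 at 2.61 (others 41.9 to 181) and Wnt10a at 0.391 (others 32.6 to 266). The same library was high in Pecam1, an endothelial adhesion gene, at 274 CPM (others 0.0867 to 2.72) and in Tgm1 at 13.6 (0 in all others). Keratinocyte female 1 had no count of Cyp2b19 (others 27.2 to 212) and Hoxa7 (others 47.4 to 151), was low in Fgfr3 at 11.7 CPM (others 200.3 to 927) and Stxbp2 at 1.43 (others 56.8 to 133), and was high in Gadd45a at 49.8 (others 0.132 to 3.39) and Lgals7 at 6113 (others 2676 to 3683).

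The shallow keratinocyte female 2 was low in Perp at 2275 CPM (others 3310 to 4200.3) and Pkp3 at 115 (others 372 to 651), and high in Ccl2 at 2.04 (others 0.151 to 0.391) and P2ry2 at 1.36 (others 0 to 0.173). Keratinocyte male 1 was high in Krt8 at 8.91 CPM (others 0 to 0.679), low in Smo at 8.58 (others 52.9 to 80.9), and the one library with Tslp, at 0.0660 (0 in all others). Keratinocyte male 3 was low in Cdh1 at 107 CPM (others 214 to 354), and keratinocyte female 3 was the one library with Mmp19, at 0.0867 (0 in all others).

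The difference from immune cells depended on sex, by edgeR's test of the interaction, for 258 genes, and the difference from fibroblasts for 144. The values are the log2 difference of keratinocytes in females minus the same in males, each with its Benjamini-Hochberg adjusted p. Against immune cells, genes with a larger value in females were Col1a2 at 9.02 (adjusted p = 1.42e-06), Krt17 at 9.51 (adjusted p = 0.0179), S100a14 at 9.46 (adjusted p = 0.0141) and Smo at 8.09 (adjusted p = 0.0358). Sox9 followed at 7.38 (adjusted p = 2.74e-05), Ptgs2 at 7.28 (adjusted p = 0.0191), Cxcl14 at 5.01 (adjusted p = 0.01) and Krt14 at 4.15 (adjusted p = 0.0427). Krt17 and S100a14 had no count in the immune libraries of females and reached 23.5 and 15.9 CPM in those of males. Sox9 was at 0.112 to 0.324 and 28.0 to 52.1 CPM there. Fibroblast markers summed to 311 to 609 CPM in the immune libraries of females and 6042 to 13242 in those of males. The part of these levels in the sex dependence was not tested. None of the 716 genes was called between female and male keratinocytes. The Krt14 call was lost in 13 of the 23 fits without 1 library and the Smo call in 9, and Krt14 also without a filter on low counts. The Ptgs2 call was lost without keratinocyte male 3. Cd36 at -6.73 (adjusted p = 0.000444) and Tuba1a at -6.72 (adjusted p = 0.00126) went the other way. Against fibroblasts, Ptgs2 was at 7.75 (adjusted p = 0.0262), Qpct at 5.78 (adjusted p = 0.0333), Col1a2 at 3.83 (adjusted p = 0.0165) and Xist at 3.33 (adjusted p = 0.0135). Tuba1a at -6.61 (adjusted p = 0.00668) and Cd36 at -4.54 (adjusted p = 0.0251) were again negative. The Qpct call was lost in 7 of the 23 fits without 1 library, the Cd36 call without fibroblast female 2, and the Ptgs2 call without fibroblast female 2 and without keratinocyte male 3. With voom, Sox9 against immune cells alone kept its call among the genes named here.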

How the results depend on the processing

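Genes higher in both comparisons numbered 716, and 623 to 762 without 1 library. DESeq2 called 1116, among them 670 of the 716, and voom called 892, RLE scaling 810 and library size alone 1044. The females alone gave 356 and the males alone 113, from fewer libraries. For genes lower in both, the females alone gave 910 and the males alone 1111, against 2028. Against immune cells the higher and lower calls were 774 and 1679 in the females alone and 173 and 1796 in the males alone, and DESeq2 called 1853 higher. Against fibroblasts they were 748 and 1423 in the females alone and 538 and 1474 in the males alone. Replicate numbers did not pair the libraries: the correlation of deviations between populations at the same number was -0.03 to 0.03. With the replicate block, 427 genes were higher in both comparisons, 649 higher than immune cells, 926 higher than fibroblasts, and the difference depended on sex for 71 and 4 genes. Named genes that lost both calls with it were Frem2, Hoxc6, Hoxc10, Hoxc11, Hoxc12, Hoxc13 and Ntf5. Hoxa10, Hoxd13, Krt16, Prc1 and Wnt4 lost the call against immune cells, and Hoxa13, Hoxd11 and Vwa2 that against fibroblasts. The sex dependence of Krt14, Krt17, Ptgs2, S100a14 and Smo against immune cells and of every named gene against fibroblasts was lost too.

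Counts by sex were the least stable. Female against male keratinocytes gave 326 genes, and 194 to 579 without 1 library, lowest without keratinocyte male 2 and highest without keratinocyte male 1. DESeq2 called 1988 and voom 5. The difference from immune cells depended on sex for 258 genes, 175 to 485 without 1 library and highest without keratinocyte male 1, 1766 by DESeq2 and 19 by voom. The difference from fibroblasts did for 144, and for 61 to 447 without 1 library, with 1664 by DESeq2 and 2 by voom; it was 61 to 84 without any 1 of the fibroblast libraries of females, 268 and 257 without keratinocyte female 3 and 4, and 447 without keratinocyte male 1. Of the named genes, Hoxa10 turned to -0.40 (log2) against immune cells in the males alone and Cd36 to -2.30 against fibroblasts in the females alone. The cause of these changes was not tested. Keratinocyte female 2 had the fewest counts. Keratinocyte male 2 had the fewest genes with a count, 8082 against 9563 in keratinocyte female 2.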

Other observations

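Some genes higher in keratinocytes in both comparisons lay side by side. Of the 712 that could be placed in the RefSeq order of GRCm38.p6, 129 (18.1%) had a tested neighbour that was also called higher in both. Besides the HoxC genes and the desmosomal cadherins, keratin genes formed such runs. Krt6a, Krt5, Krt2 and Krt1 were 4 consecutive tested genes of chromosome 15. On chromosome 11 there was a run of Krt24, Krt27, Krt28 and Krt10, and another of Krt14, Krt16, Krt17 and Krt42. Calml3, Calm4, Calm5 and Net1 were 4 neighbours of chromosome 13, of which the first 3 encode calmodulin-like proteins of the epidermis. On the same chromosome Irx1, Irx2 and Irx4, homeobox genes of the Iroquois family, lay in a run of 5. Tandem copies share sequence, so that some of their reads may be split between them. The share was not set against other genes and was not tested.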
